A study of Sus scrofa with 6 samples.

Results

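PPAT, RPIA, GPD1L and LIPT1 are 4 metabolic enzyme genes that lay higher in every pig induced pluripotent stem (iPS) cell line than in both somatic cell samples of the study. They were chosen by that pattern, among the 6765 genes that the platform annotation names on 10069 probe sets with exactly 1 symbol. Each was measured by 1 probe set, so they make up 4 of the 23999 probe sets examined. PPAT and RPIA serve nucleotide synthesis and LIPT1 serves lipoate attachment, while GPD1L belongs to neither and works in glycerol-3-phosphate metabolism.

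Each of 6 pig cell samples was measured on 1 array, the Affymetrix Pig Genome Array. There were 4 iPS lines, which the labels separate by stage-specific embryonic antigens (SSEA), the cell surface glycans used as pluripotency markers. PS24 (positive for SSEA1, SSEA3 and SSEA4) and 30AC5 (positive for SSEA1) are called the SSEA1-labelled lines, and iPF4-2 and iPSCs-w (positive for SSEA3 and SSEA4) the SSEA3/SSEA4-only lines. The somatic cells were PEF, which are embryo fibroblasts, and PAFSC, which are amniotic fluid stem cells. All cells were grown in DMEM with serum, and the iPS lines on mitotically inactive mouse embryonic fibroblast feeders, which the somatic cultures are not said to have had. The labels name neither the reprogramming factors nor the animals. Each line or culture was 1 sample, and nothing in the labels says that cultures were repeated. The p-values therefore measure the spread between different lines and between the 2 different somatic cell types.

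New purine nucleotides are built on ribose. RPIA, ribose-5-phosphate isomerase, makes ribose-5-phosphate in the non-oxidative branch of the pentose phosphate pathway, and PRPP synthetases activate it. PPAT, phosphoribosyl pyrophosphate amidotransferase, then adds the amino group of glutamine in the committed step of purine synthesis. LIPT1, a mitochondrial lipoyltransferase, puts the cofactor lipoate on the large 2-oxoacid dehydrogenase complexes, which feed carbon into and through the citric acid cycle. GPD1L, a relative of the cytosolic glycerol-3-phosphate dehydrogenase GPD1, interconverts dihydroxyacetone phosphate and glycerol-3-phosphate, the backbone of glycerolipids. Dividing pluripotent cells are known for a high demand for nucleotides.

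The deposited values were taken to be on a log2 scale, a base that no source names, and their zero differs between probe sets. A gene can be compared between arrays, but no gene's level with another's. Array medians lay between 0.00 and 0.05 in the iPS lines, against -0.06 in PEF and 0.70 in PAFSC. The SD over all probe sets was 0.610 to 0.729 in the iPS lines, 0.808 in PEF and 2.01 in PAFSC, so the PAFSC array was spread far wider than the others. The 5' minus 3' value of the GAPDH, actin and EF1A control probe sets averaged -1.90 in PS24 and 1.90 in PAFSC, against -0.03 to 0.19 on the other 4 arrays. Of the 29 probe sets of 16 measured fibroblast marker genes, 20 lay lower in every iPS line than in both somatic samples, as 9.99% of all probe sets did. Of 18 listed pluripotency genes 5 were measured, and their mean was 1.78 in iPF4-2 and 2.17 in iPSCs-w, but -0.17 in PS24 and -0.40 in 30AC5, against -0.65 in PEF and 0.82 in PAFSC. POU5F1, the gene of the pluripotency factor OCT4, was 0.07 in PS24 and -0.07 in 30AC5, below its 1.09 in PAFSC. By these means the SSEA1-labelled lines lay below PAFSC, and the part that these array differences have in the values of the 4 enzymes was not tested.

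The first enzyme, PPAT, was 0.27 in PS24 and 0.45 in 30AC5, and 0.76 in iPF4-2 and 0.86 in iPSCs-w, against -2.45 in PEF and -4.23 in PAFSC. All 4 iPS lines lay close together, and both somatic samples lay far below them. PPAT averaged 0.59 ± 0.28 in the iPS lines (SD, n = 4) and -3.34 ± 1.26 in the somatic samples (SD, n = 2), a difference of 3.92. Its range over the iPS lines, 0.60, was the narrowest of the 4 genes. The gap between the lowest iPS line and the higher somatic sample was 2.71, and 13 of the 23999 probe sets had a wider one.

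RPIA was 0.05 in PS24 and -0.05 in 30AC5, and 0.36 in iPF4-2 and 1.82 in iPSCs-w, against -2.45 in PEF and -3.80 in PAFSC. The first 3 lines lay together, and iPSCs-w stood 1.46 above the next. RPIA averaged 0.54 ± 0.87 in the iPS lines (SD, n = 4) and -3.13 ± 0.95 in the somatic samples (SD, n = 2), a difference of 3.67 with a gap of 2.40.

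GPD1L was 0.50 in PS24 and 0.11 in 30AC5, and 1.75 in iPF4-2 and 2.36 in iPSCs-w, against -2.27 in PEF and -3.45 in PAFSC. The iPS lines fell into a lower and a higher pair, along the marker classes. GPD1L averaged 1.18 ± 1.05 in the iPS lines (SD, n = 4) and -2.86 ± 0.83 in the somatic samples (SD, n = 2). Its difference of 4.04 was the largest of the 4, with a gap of 2.39.

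LIPT1 was -0.42 in PS24 and -0.21 in 30AC5, and 0.21 in iPF4-2 and 1.08 in iPSCs-w, against -2.35 in PEF and -3.46 in PAFSC. It averaged 0.16 ± 0.66 in the iPS lines (SD, n = 4) and -2.90 ± 0.78 in the somatic samples (SD, n = 2), a difference of 3.06. Its gap of 1.92 was the smallest of the 4, and 42 probe sets had a wider one.

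These differences chose the genes and are given with no test. Every iPS line lay above both somatic arrays for 11.9% of all probe sets, and by 1 log2 unit or more for 1.19%. Among the other genes of the pathways described further on, ADSS (gap 0.00) and GK (gap 0.02) lay just inside that rule, and RRM2B (-0.08) and TALDO1 (-0.19) just outside it. With bulk RNA, fewer cells of a type and less RNA per cell cannot be told apart.

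**Figure D1:**
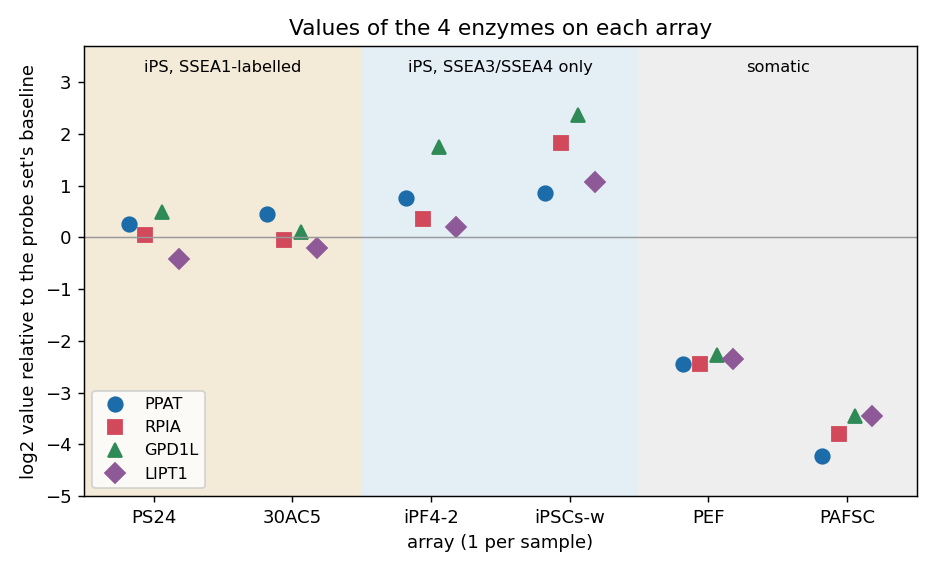
Log2 values of PPAT, RPIA, GPD1L and LIPT1 (zero set per probe set, vertical axis) on the 6 arrays (horizontal axis), 1 point per gene and array, with background shading for the SSEA1-labelled lines, the SSEA3/SSEA4-only lines and the somatic samples. All 16 iPS points lie between -0.42 and 2.36, and the 8 somatic points between -4.23 and -2.27.

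The genes were chosen for lying above PEF as well as PAFSC, so the direction of a difference from PEF alone was fixed in advance. Its size is given as a description. Set against PEF only, the iPS mean was higher by 3.03 for PPAT, 3.00 for RPIA, 3.46 for GPD1L and 2.51 for LIPT1. All probe sets had a median difference of 0.13 from PEF and of -0.34 from the mean of both somatic arrays. In PEF the values of the 4 genes ran from -2.45 to -2.27, and between 82 and 101 of the 23999 probe sets had a value as low or lower. As the zero differs between probe sets, such a rank gives the distance from each gene's own zero and not its level of expression. In PAFSC they ran from -4.23 to -3.45, where 820 to 1525 probe sets were as low or lower. Counted in SDs of its own array from the array median, each gene was further down in PEF (-2.96 to -2.74) than in PAFSC (-2.45 to -2.06).

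As deposited, PEF lay above PAFSC for each of the 4 genes, by 1.78 for PPAT, 1.35 for RPIA, 1.17 for GPD1L and 1.11 for LIPT1. With 1 sample on each side there is no test of this order. PEF was higher by 1 log2 unit or more for 25.7% of all probe sets, and PAFSC was the lowest of the 6 arrays for 27.7%. After quantile normalization, which gives all arrays the same spread, the order was turned for 4 of 4 genes, with PPAT at -3.25 in PEF and -1.64 in PAFSC. Which somatic sample is lower in these enzymes therefore depends on the scaling between the arrays.

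**Figure D2:**
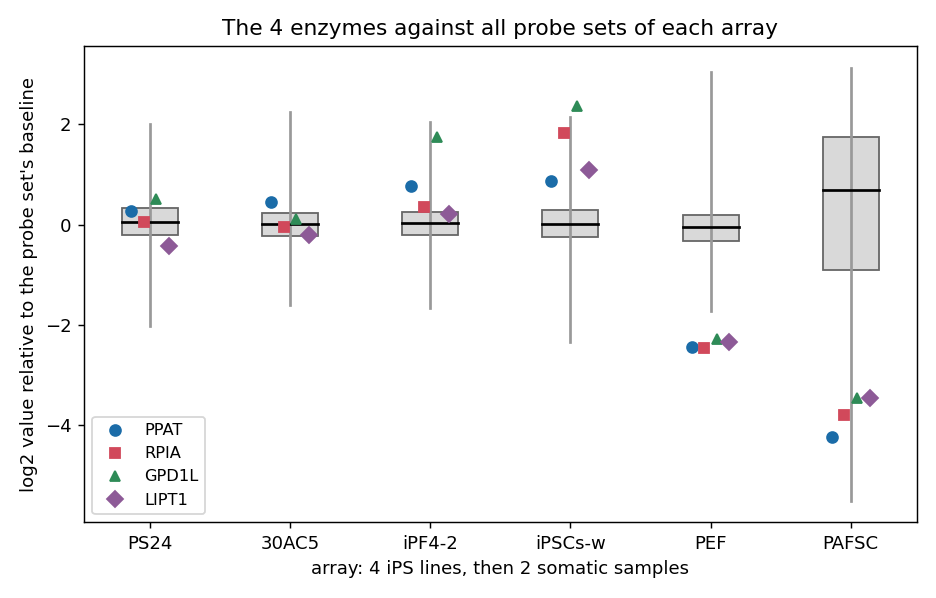
The same log2 values (vertical axis) beside the distribution of all 23999 probe sets on each array: box over the quartiles with the median as a line, grey whisker from the 1st to the 99th percentile. In PEF all 4 genes lie below the whisker, and in PAFSC they lie inside its wide one. The zero is set per probe set, so a place in the distribution is not a level of expression.

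Within the iPS lines the 4 genes shared an order that the rule choosing them did not use, although earlier results of these data were known. Over the 6 arrays their values rose and fell together (Pearson r of 0.958 to 0.996, the iPS against somatic contrast included). The rule that chose the genes made such an r high, so it does not bear on the order within the iPS lines. The 4 genes were measured on the same lines and are not separate observations of this order. The SSEA1-labelled lines lay below both SSEA3/SSEA4-only lines for 4 of 4 genes, and iPSCs-w was the highest line for 4 of 4. Over all probe sets the first held for 20.2% and the second for 27.3%. Among the 2854 probe sets with every iPS line above both somatic arrays, the first held for 31.3%. The order of PS24 and 30AC5 was not shared: PS24 was higher by 0.10 for RPIA and 0.38 for GPD1L, and lower, with differences of -0.18 for PPAT and -0.21 for LIPT1.

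The difference between the marker classes was not past the threshold for any of the 4 genes. GPD1L averaged 0.31 ± 0.27 in the SSEA1-labelled lines and 2.06 ± 0.43 in the SSEA3/SSEA4-only lines (SD, n = 2 each), a difference of -1.75 (SE 0.69, 95% interval -3.35 to -0.15, limma adjusted p = 1.00). RPIA averaged 0.00 ± 0.07 in the SSEA1-labelled lines and 1.09 ± 1.04 in the SSEA3/SSEA4-only lines, a difference of -1.09 (SE 0.78, 95% interval -2.90 to 0.72). The higher of the SSEA3/SSEA4-only values was that of iPSCs-w: without it the RPIA difference was -0.36, and without iPF4-2 it was -1.82. The iPF4-2 value of RPIA was thus nearer to the SSEA1-labelled lines than to iPSCs-w. LIPT1 averaged -0.31 ± 0.15 in the SSEA1-labelled lines and 0.64 ± 0.61 in the SSEA3/SSEA4-only lines, a difference of -0.96 (SE 0.69, 95% interval -2.57 to 0.65). Without iPSCs-w it was -0.52. PPAT averaged 0.36 ± 0.13 in the SSEA1-labelled lines and 0.81 ± 0.07 in the SSEA3/SSEA4-only lines, a difference of -0.46 (SE 0.75, 95% interval -2.19 to 1.28). All 4 limma adjusted p were 1.00, and the intervals of RPIA, LIPT1 and PPAT span 0.

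Of the 4 genes, GPD1L alone had an unadjusted p under 0.05 (limma, unadjusted p = 0.0356), which 1.12% of all probe sets had in that direction, 1.72% in the other and 2.84% in either. At the adjusted threshold limma called 0% of the 23999. The spread in this fit also takes in the distance between PEF and PAFSC. With either somatic array left out, the SE of GPD1L was 0.33 and its limma adjusted p = 0.189. GPD1L stayed under 0.05 after quantile normalization (limma, unadjusted p = 0.0236). It also did with a trended or a robust prior (limma, unadjusted p of 0.0273 and 0.0362). With array medians subtracted GPD1L was no longer under that level (limma, unadjusted p = 0.0566), and its 95% interval was -3.59 to 0.07. The same held with any of the iPS lines left out (limma, unadjusted p of 0.0948 to 0.223). Over all alternatives that could be fitted its adjusted p ran from 0.189 to 1.00. A permutation of 2 lines against 2 cannot give a two-sided exact p below 0.333. Among marker genes, 5 of 5 pluripotency probe sets and 11 of 17 epithelial probe sets were lower in both SSEA1-labelled than in both SSEA3/SSEA4-only lines, where 20.2% of all probe sets were. Of the proliferation probe sets 3 of 16 were, a share near that of all probe sets. Of the 16, 13 had a negative difference between the classes, for which no share over all probe sets was counted. The median difference of the 16 was -0.38, against 0.01 over all probe sets. The part of these marker genes in the order of the 4 enzymes was not tested.

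**Figure D3:**
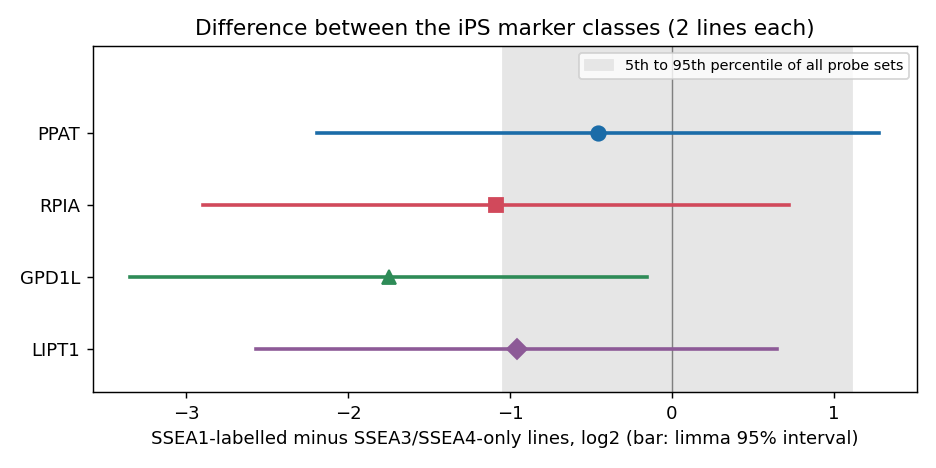
Difference in log2 value between the SSEA1-labelled lines (PS24, 30AC5) and the SSEA3/SSEA4-only lines (iPF4-2, iPSCs-w), horizontal axis, for each of the 4 genes, with limma 95% intervals as bars and the 5th to 95th percentile of all probe sets as a grey band. All 4 points lie to the left of 0, and the GPD1L interval is the 1 that stays below 0 with the values as deposited; with array medians subtracted it reaches 0.07.

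The reactions around each enzyme were then described through 115 probe sets of 80 other genes in 7 lists. None passed the limma threshold between iPS lines and somatic cells (0 of 115, smallest limma adjusted p = 0.165). At an unadjusted p under 0.05, 36 were higher in the iPS lines and 0 lower, where all probe sets gave 8.25% higher and 5.4% lower. Of all probe sets 0.025% passed the limma adjusted threshold, 0.00833% higher and 0.0167% lower in the iPS lines. Every iPS line lay above both somatic arrays for 46 of the 115, which is 40% against 11.9% of all probe sets, and below both for 0, against 9.99%. Set against PEF alone, the iPS lines lay above it for 74 of the 115, where 32.4% of all probe sets did. The median difference was 0.80 from both somatic samples and 0.62 from PEF, each larger than over all probe sets. A gap of 1 or more was found for 3 of the 115, against 1.19% of all probe sets.

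De novo purine synthesis, the pathway that PPAT opens, had 22 probe sets of 10 other genes, of which 11 lay above both somatic arrays in every iPS line. Their median difference was 0.72, and 0.87 from PEF. Before PPAT stand the PRPP synthetases. One probe set of PRPS1 differed by 2.87 (SE 1.20, limma adjusted p = 0.357), but by 0.31 from PEF, and its value in PAFSC was -5.10. The other differed by 1.49 (SE 0.52) and by 1.05 from PEF. The 3 probe sets of PRPS2 differed by 2.31 (SE 0.85), 1.30 (SE 0.55) and -0.18 (SE 0.80), and by 0.69, 0.69 and 1.21 from PEF. The last was also the 1 with a high value in PAFSC, 1.43. At the end of the pathway, ATIC, which closes the purine ring, had 4 probe sets with differences of 2.40 (SE 0.81), 1.81, 0.73 and -0.31, and 2 of the 4 lay above both somatic arrays. From PEF the same 4 differed by 1.34, 0.99, 1.39 and 0.19.

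PAICS, the enzyme of the steps in the middle of the pathway, is the neighbour of PPAT. In human the 2 genes are transcribed in opposite directions from a shared promoter region, and in the pig gene table of the assembly Sscrofa11.1 their annotated spans overlap. PAICS had 2 probe sets. The first, with the suffix A1_at, was -0.15 in PS24 and -0.69 in 30AC5, and 0.72 in iPF4-2 and 0.58 in iPSCs-w, against -1.43 in PEF and -3.90 in PAFSC. It followed PPAT in direction, with a difference of 2.78 (SE 0.76, limma adjusted p = 0.255) and 1.54 from PEF. The second, with the suffix S1_at, was -1.61 in PS24 and -0.87 in 30AC5, and 0.30 in iPF4-2 and 0.19 in iPSCs-w, against -1.63 in PEF and 1.13 in PAFSC. On it the iPS lines did not separate from the somatic samples (difference -0.24, SE 0.87), because PAFSC was the highest array. From PEF alone this probe set differed by 1.14, and every iPS line lay above PEF. Both probe sets had the SSEA1-labelled lines below both SSEA3/SSEA4-only lines, with differences of -1.07 (SE 0.88) and -1.49 (SE 0.94). RPIA and LIPT1 each had 1 neighbour within 1000 bases in that table, a long non-coding RNA that no annotated probe set measured, and GPD1L had 0.

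Such disagreement between probe sets of a gene was common. Of the 25 pathway genes with more than 1 probe set, 13 had some but not all of them above both somatic arrays, 2 had all and 10 had none. The PAFSC values were of both signs in 12 of the 25 and the PEF values in 7. Differences from PEF had both signs in 3 of the 25, against 13 of 25 for differences from both somatic samples. PPAT, RPIA, GPD1L and LIPT1 had a single probe set each, so this check could not be made for them.

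Purine salvage, which recycles bases and nucleosides in place of new synthesis, had 10 probe sets of 8 genes, of which 6 lay above both somatic arrays. PNP, purine nucleoside phosphorylase, was 0.29 in PS24 and 0.43 in 30AC5, and 0.83 in iPF4-2 and 1.93 in iPSCs-w, against -1.27 in PEF and -3.29 in PAFSC. Its difference was 3.15 (SE 0.72, limma adjusted p = 0.193) and its gap 1.56, in the same order of marker classes as the 4 enzymes. HPRT1, which salvages hypoxanthine and guanine, differed by 2.79 (SE 0.77) and by 1.39 from PEF. ADK, adenosine kinase, differed by 1.55 (SE 0.49) on 1 probe set and 1.46 on the other. NT5C2, a nucleotidase, differed by 2.63 (SE 1.40), but by -0.42 from PEF.

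Pyrimidine and deoxynucleotide synthesis had 14 probe sets of 11 genes, of which 5 lay above both somatic arrays. The 4 largest differences were those of SAMHD1, which breaks down deoxynucleotides (3.38, SE 1.33), RRM2 and RRM1, the subunits of ribonucleotide reductase (2.74, SE 1.19, and 2.32, SE 0.85), and CTPS1, which makes CTP (2.02, SE 0.67). Against PEF alone they were 0.46, 0.22, 0.62 and 0.85. Most of their size therefore lay in the PAFSC array. Folate one-carbon metabolism, which supplies carbon to the purine ring, had 19 probe sets of 12 genes, with 5 above both somatic arrays. PSAT1 and PSPH, enzymes of serine synthesis, differed by 2.30 (SE 1.60) and 2.14 (SE 1.49), but by -1.13 and -1.03 from PEF. GGH, a folate hydrolase, had 3 probe sets that differed by 2.79 (SE 0.90), 1.15 and 0.49, and by 0.95, 0.86 and 0.69 from PEF. MTHFD2, a mitochondrial folate enzyme, differed by 2.08 (SE 0.87) and by 0.49 from PEF.

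The pentose phosphate pathway around RPIA had 8 probe sets of 8 other genes, 4 of them above both somatic arrays. PGM2, which handles ribose-1-phosphate and deoxyribose-1-phosphate, was -0.35 in PS24 and -0.05 in 30AC5, and 0.45 in iPF4-2 and 0.05 in iPSCs-w, against -2.16 in PEF and -2.53 in PAFSC. It differed by 2.37 (SE 0.47, limma adjusted p = 0.165) and by 2.19 from PEF, so it was low in both somatic samples, as RPIA was. DERA, which splits deoxyribose-5-phosphate, differed by 3.31 (SE 0.98) and by 1.25 from PEF. RPE, the epimerase that shares ribulose-5-phosphate with RPIA, differed by only 0.41 (SE 0.44), although every iPS line lay above both somatic arrays. TKT, transketolase, differed by 2.51 (SE 0.77) and by 1.03 from PEF, but its partner TALDO1, transaldolase, by 1.61 (SE 0.81) and 0.03. PGD, in the oxidative branch, was -0.66 in PS24 and -0.68 in 30AC5, and -0.07 in iPF4-2 and -0.04 in iPSCs-w, against 0.58 in PEF and -3.39 in PAFSC. PGD thus lay below PEF in every iPS line, as did PGM1, with differences from PEF of -0.94 and -1.27. Of all probe sets 19.1% lay below PEF in every iPS line, and of the 115 it was 4.

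Glycerol-3-phosphate and glycerolipid genes around GPD1L had 24 probe sets of 15 genes, with 5 above both somatic arrays and a median difference of 0.09, the smallest of the 7 lists. The relatives of GPD1L did not lie above both somatic arrays in every iPS line. GPD1, the cytosolic enzyme, was 0.05 in PS24 and 0.06 in 30AC5, and 0.43 in iPF4-2 and -0.21 in iPSCs-w, against -0.02 in PEF and 1.54 in PAFSC. GPD2, the mitochondrial enzyme, had 3 probe sets with differences of -0.21 to 0.85, and of 0.92 to 1.47 from PEF. Between the marker classes all 3 had the order of GPD1L, lower in both SSEA1-labelled lines, with differences of -0.44, -1.23 and -3.08 (limma adjusted p = 1.00 for each). The largest differences of the list were those of AGPAT5 (3.86, SE 1.36) and GNPAT (3.00, SE 1.19), acyltransferases of glycerolipid and ether lipid synthesis, then GK, glycerol kinase (1.95, SE 0.87), and LPIN1, a phosphatidate phosphatase (1.44, SE 0.79). From PEF they were 0.85, 0.42, 0.18 and 0.09. For AGPAT5, GK and LPIN1 these are the larger of 2 probe sets. The other probe set differed by 0.80 for AGPAT5 (1.70 from PEF), by -0.42 for GK (0.72 from PEF) and by 1.42 for LPIN1 (0.70 from PEF). In PAFSC the AGPAT5 probe sets were at -6.63 and 0.57, far apart.

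Lipoate synthesis and the lipoylated complexes around LIPT1 had 18 probe sets of 16 other genes, of which 10 lay above both somatic arrays and 0 below. The median difference was 1.32, and 0.69 from PEF. LIAS, the lipoate synthase, was -0.71 in PS24 and -0.15 in 30AC5, and 0.48 in iPF4-2 and 0.84 in iPSCs-w, against -1.17 in PEF and -4.65 in PAFSC. Its order over the 4 lines was that of LIPT1, and it differed by 3.02 (SE 0.93, limma adjusted p = 0.286) and by 1.28 from PEF. GLRX5, an iron-sulfur cluster protein, differed by 2.34 (SE 0.68) and by 1.22 from PEF. Of the lipoylated complexes, DBT, the lipoylated subunit of the branched-chain complex, differed by 2.31 (SE 0.66) and by 1.29 from PEF, and DLD, the dehydrogenase that the complexes share, by 3.36 (SE 1.24) and 0.66. OGDH and BCKDHA were not separated from both somatic samples, with differences of -0.02 and 0.14. From PEF alone they differed by 0.24 and 0.66, and every iPS line lay above PEF for both.

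**Figure D4:**
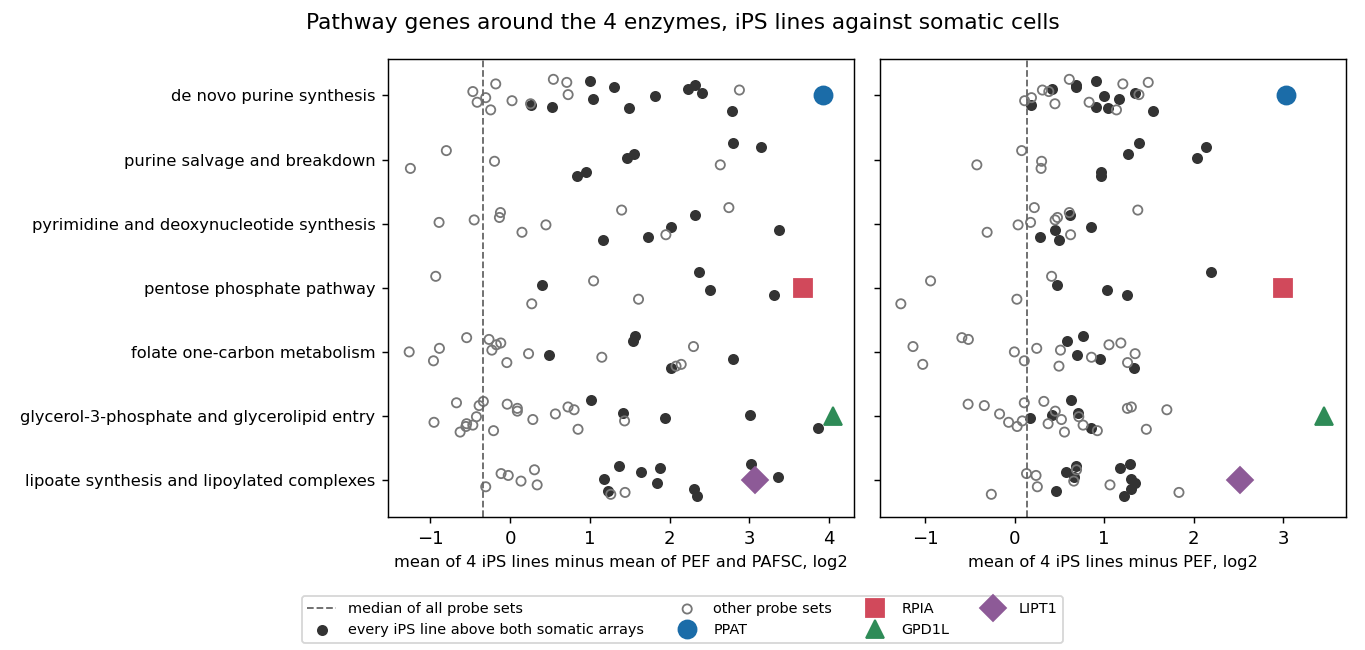
Difference in log2 value between the mean of the 4 iPS lines and the mean of PEF and PAFSC (left) or PEF alone (right), 1 circle per probe set in 7 pathway lists (vertical axis), filled where every iPS line lay above both somatic arrays; coloured symbols are the 4 enzymes and the dashed line is the median of all probe sets. The 4 enzymes lie at 3.06 to 4.04 on the left and 2.51 to 3.46 on the right, and the list genes come closer to them on the left, where PAFSC enters.

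Between the marker classes, 50 of the 115 pathway probe sets had the SSEA1-labelled lines below both SSEA3/SSEA4-only lines and 11 had them above, where all probe sets gave 20.2% and 21%. The median difference was -0.33, against 0.01 over all probe sets. Limma called 0 of the 115 (smallest adjusted p = 1.00), and at an unadjusted p under 0.05 it found 2 lower and 1 higher. By list, the lower count was 12 of 22 for de novo purine synthesis, 2 of 8 for the pentose phosphate pathway, 12 of 24 for the glycerolipid list and 7 of 18 for the lipoate list. The 2 lowest means of proliferation markers were those of PEF and PAFSC: their 16 probe sets averaged -0.38 in PS24 and 0.14 in 30AC5, and 0.11 in iPF4-2 and 0.55 in iPSCs-w, against -0.62 in PEF and -1.38 in PAFSC. Of the 16, 7 lay above both somatic arrays in every iPS line, where 11.9% of all probe sets did. The part of the proliferation markers in the values of the 4 enzymes was not tested.

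The probe sets most like each gene were sought among 10065 others by Pearson correlation over the 6 arrays. All 4 genes were low in PEF and PAFSC and high in the iPS lines, so r takes in that contrast and is given as a description of likeness only. PPAT was closest to HDDC2 (r = 0.998), ORC1, a subunit of the replication origin complex (r = 0.996), and CIT, citron kinase (r = 0.993). RPIA was closest to RPAP2, a phosphatase of RNA polymerase (r = 0.996), CHEK2, a checkpoint kinase (r = 0.996), and ANAPC1, a subunit of the anaphase-promoting complex (r = 0.991). GPD1L was closest to PDSS1, which makes the side chain of coenzyme Q (r = 0.999), STIP1, a co-chaperone (r = 0.995), and MRPS5, a mitochondrial ribosomal protein (r = 0.995). LIPT1 was closest to RPAP2 (r = 0.996), HSD17B10, a mitochondrial dehydrogenase (r = 0.994), and LOC100512926 (r = 0.992). The likeness was one of shape and not of size: CIT differed by 0.62 between iPS lines and somatic samples and HSD17B10 by 0.59. With so few arrays many probe sets resemble a gene, and 106 to 187 reached a correlation of 0.95 or more with 1 of the 4. The named neighbours also depended on the measure: ranked over the 5 arrays without PAFSC, 0 of the 3 named for PPAT, RPIA and LIPT1 and 1 of the 3 for GPD1L were again among the first 3.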

How the data were processed

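The deposited log2 values covered 24123 probe sets and 6 arrays, with 0 missing. No source names the log base, the authors' software, their normalization or the baseline; base 2 was assumed. In 18.4% of probe sets 2 arrays held values of equal size and opposite sign (within 5e-06). The 124 control probe sets were left out. The platform annotation gave 1 symbol to 10069 probe sets, several to 198 and none to 13732. All 4 genes matched the RefSeq gene table by gene ID. That table has no strand, so neighbours were taken on either strand within 1000 bases.

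R 4.3.3 with limma 3.58.1 was used for lmFit and eBayes (p two-sided, adjusted by Benjamini-Hochberg across the 23999 probe sets, threshold 0.05) and was tested on simulated data. The iPS against somatic fit had 4 residual degrees of freedom and the fit of 3 classes had 3. The members and lists were chosen with earlier results of these data known. Named were the 4 genes, the 4 largest differences of each list, the 3 probe sets most like each gene and genes next to them. RPE, PGD, PGM1, GPD1, GPD2, OGDH and BCKDHA were added after their values were seen. Array medians subtracted, quantile normalization, leaving out the 40% of probe sets with the lowest means, a trended or robust eBayes prior (statmod 1.5.0), Spearman correlation and leaving out each sample were the alternatives. The number of arrays limits the precision.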

Additional observations from a re-analysis of the deposited data

Results flagged for a closer look

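The 4 iPS lines were searched for a line far from the other 3 (its gap to the nearest line divided by the range of the 4, above Dixon's 95% critical value) in 49 probe sets of the 4 enzymes and the named list genes, and 4 were found. For normally distributed values chance gives about 1 in 20 such groups, and the share over all probe sets was not counted. The 49 were picked genes on the same lines, so the 4 are given as a description. PRPS1 was -0.45 in iPF4-2 on 1 probe set, below the other lines. ADK was -0.68 in 30AC5 on 1 probe set, below the others. RRM1 was 0.32 in PS24, above the others, and DERA was -0.37 in iPSCs-w, below them. RPIA in iPSCs-w, with a ratio of 0.783, did not reach the critical value.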

How the results depend on the processing

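All 4 genes lay above every somatic array in every iPS line in each of the 8 alternatives run for these counts. They also had every SSEA1-labelled line below every SSEA3/SSEA4-only line in each. The first of these orders chose the genes. Leaving out a sample cannot break an order that holds on all 6 arrays, so those alternatives could not have changed either count. Over the 8 alternatives the iPS minus somatic difference ran from 3.03 to 4.81 for PPAT, 3.00 to 4.34 for RPIA, 3.46 to 4.63 for GPD1L and 2.42 to 3.62 for LIPT1. The filter on the lowest 40% by mean removed all 4 genes. As the zero differs between probe sets, this mean is not a level of expression. Between iPS lines and somatic cells limma called 6 probe sets, against 1 with array medians subtracted, 35 with the filter and 2 with a trend. With 1 sample left out the count ran from 0 (PS24, 30AC5 or iPSCs-w left out) to 14303 (PEF left out), with 136 without PAFSC and 1 without iPF4-2. A lone somatic sample is assumed to vary like the iPS lines. Between the marker classes limma called 0, against 90 after quantile normalization and 44 with the filter, and 0 to 4 with 1 sample left out (4 without PEF or PAFSC). The number of pathway probe sets above the somatic arrays was 36 to 48 under the scalings and 46 to 74 with 1 sample left out (74 without PAFSC, where 32.4% of all probe sets lay above, and 62 without PEF, where 29.7% did). Those lower in the SSEA1-labelled lines, 50 as reported, were 50 to 74 with 1 sample left out (74 without 30AC5 and 70 without iPF4-2, where 33.1% and 34.5% of all probe sets were). The cause of these changes was not tested. With Spearman correlation, 144 probe sets tied at 1 with PPAT.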
